A study of Mus musculus with 8 samples.

Results

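The insulin-like growth factor (IGF) axis was followed through 10 genes in cultured fibroblasts of mouse embryos that carried or lacked Smurf2, the gene of a HECT-type ubiquitin ligase. The genes were the ligands Igf1 and Igf2, the receptors Igf1r and Igf2r, and the binding proteins Igfbp2, Igfbp3, Igfbp4, Igfbp5, Igfbp6 and Igfbp7. They were listed by name, with earlier results of these data known. A transcript cluster (the set of probes that reports 1 gene) was used where the listed gene was its only symbol. All 10 were found, each with 1 such cluster, among 17501 named genes. Smurf2-/- cells and wild-type cells were each grown from a mixed 129SVJ and NIH Black Swiss background, labelled mixed BL, and from C57B6. Late cells were at passage 33 in mixed BL and 28 in C57B6, and early cells were at passage 6 in mixed BL and 7 in C57B6. With 1 array per combination of genotype, background and passage class there were 8 arrays, 4 at each level of each factor. Smurf2-/- mixed BL cells were pooled from 3 embryos and wild-type mixed BL cells from 2, whereas each C57B6 genotype came from 1 embryo. Genotype therefore cannot be told apart from the embryo in C57B6, nor from the pool of embryos in mixed BL. The embryos were E14.5 by the sample descriptions and of day 11.5 by the growth protocol, and the labels do not say whether early and late arrays share a culture. Technical replicates were not made, and no combination had an independent biological replicate. The p-values therefore measure the spread among these 8 arrays only. In the main comparisons that spread is what additive effects of genotype, background and passage class leave over. It holds interactions of these factors as well as noise, and the 2 cannot be told apart.

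IGF1 and IGF2 are secreted peptides that signal through the receptor tyrosine kinase IGF1R to promote growth and survival. IGF2R carries no kinase signal of that kind: it takes IGF2 to the lysosome and also transports mannose 6-phosphate tagged enzymes. The binding proteins hold the ligands in the extracellular space, restrain or prolong their action, and are cut by proteases that free the ligand. IGFBP7 binds IGFs weakly and is often discussed with secreted factors of ageing cultures, and Igf2 and Igf2r are imprinted in mice with opposite parental expression. Embryonic fibroblasts make their own IGFs and binding proteins. By the RefSeq annotation Igf1 lies on chromosome 10, Igf2 and Igf1r on chromosome 7, Igf2r on chromosome 17, Igfbp2 and Igfbp5 on chromosome 1, Igfbp3 and Igfbp4 on chromosome 11, Igfbp6 on chromosome 15 and Igfbp7 on chromosome 5.

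Promoter sequences are shown for Igf2r, Igfbp7 and Igfbp3, the members that were lower at late passage in all 4 matched pairs of arrays. The stretches are the 250 bases before a RefSeq start (assembly GRCm38.p6, minus strand, 5' to 3'), at chr17:12769707-12769956, chr5:77408046-77408295 and chr11:7213924-7214173. For Igf2r and Igfbp7 that start is the edge of the annotated gene, and for Igfbp3 it lies within the annotated gene. Capitals mark matches, on either strand, to the GC box GGGCGG in the Igf2r and Igfbp7 stretches and to the TATA element TATANA in the Igfbp3 stretch.
Igf2r: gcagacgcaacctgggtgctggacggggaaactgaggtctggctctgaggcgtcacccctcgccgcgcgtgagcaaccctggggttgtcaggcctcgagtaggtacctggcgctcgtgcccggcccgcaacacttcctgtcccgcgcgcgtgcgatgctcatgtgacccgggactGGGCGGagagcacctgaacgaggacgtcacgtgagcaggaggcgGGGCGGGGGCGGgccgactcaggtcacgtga
Igfbp7: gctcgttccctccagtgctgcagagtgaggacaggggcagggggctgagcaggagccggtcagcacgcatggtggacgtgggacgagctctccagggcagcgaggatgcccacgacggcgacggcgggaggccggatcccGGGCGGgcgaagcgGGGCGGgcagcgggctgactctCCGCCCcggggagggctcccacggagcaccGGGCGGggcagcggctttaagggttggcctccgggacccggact
Igfbp3: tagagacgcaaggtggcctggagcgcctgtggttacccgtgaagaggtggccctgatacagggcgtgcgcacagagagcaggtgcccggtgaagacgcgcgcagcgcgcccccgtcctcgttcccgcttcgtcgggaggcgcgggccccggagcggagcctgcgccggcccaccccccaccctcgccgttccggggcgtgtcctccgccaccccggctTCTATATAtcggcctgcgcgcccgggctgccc
The Igf2r stretch held 3 GC boxes, Igfbp7 held 4 and Igfbp3 held 0, and 32.7% of all promoter stretches of this length held at least 1. Igfbp3 held 2 overlapping TATA matches, an element found in 22.6% of the stretches and in neither of the other genes shown. The TATA search was chosen after the sequences were seen. All of these promoters were rich in CpG, with 27 in Igf2r, 26 in Igfbp7 and 32 in Igfbp3, and 91.4%, 90.4% and 95.4% of promoter stretches had fewer. The CCAAT box (CCAAT, in 33.8% of stretches) and the AP-1 element (TGANTCA, in 6.75%) had no match in these windows. All 10 genes had a RefSeq promoter.

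The values are log2 intensities that the authors had centred on each cluster's median over the 8 arrays, so a value of 1 is a doubling of that median and 0 is the median itself. They carry no level that could be set between genes, and the fibroblast label could not be checked by marker level. Smurf2 stood at -1.21 to -0.43 in Smurf2-/- arrays and at 0.43 to 0.96 in wild-type arrays, a difference of -1.57 ± 0.12 (SE, limma adjusted p = 0.0484). Sex-linked genes split the genotypes as well: Xist was -2.07 to -1.53 in Smurf2-/- arrays and 1.53 to 3.20 in wild-type arrays, and Uty, Kdm5d and Eif2s3y ran the other way, so genotype and sex cannot be told apart. A principal component analysis gave a first component with 30.9% of all variance. It placed the late Smurf2-/- arrays apart, at 37.1 in mixed BL and 36.6 in C57B6, against -34.7 to 9.0 for the other 6. Differences that rest on these arrays are therefore also given without them, an alternative added after the data were seen. Without them a genotype difference is the mean of the early pairs and a passage difference the mean of the wild-type pairs. Such values restate those pairs and are not a separate test.

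The IGF genes varied widely. The range over the 8 arrays had a median of 3.65 log2 units among the 10 genes, against 0.54 among all 17501. This contrast is a description only: the 10 were chosen with earlier results of these data known, and dim genes could not be filtered from the 17501. Igf2 spanned 5.13 log2 units, a 34.9-fold range that 8 genes exceeded. Igfbp2 spanned 4.77 units (27.2-fold, exceeded by 20 genes) and Igfbp3 spanned 4.64 units (25-fold, exceeded by 24). Igf1 spanned 4.23 units and Igfbp6 4.10, and Igf1r had the smallest range of the 10, at 1.08 units or 2.11-fold. RNA of whole cultures was measured, so fewer cells of a type and less RNA per cell cannot be told apart in any of these values. Each array was the single measurement of its combination, so that neighbours in a gene's order of arrays have no spread of their own to be told apart by.

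**Figure D1:**
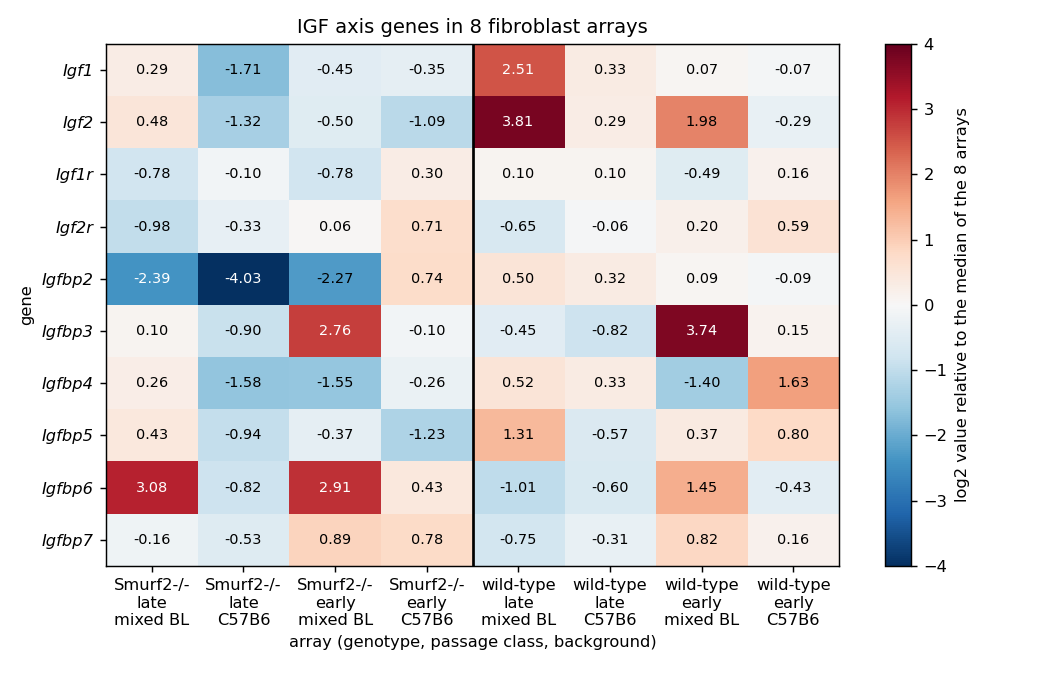
Heat map of the 10 IGF axis genes (rows) on the 8 arrays (columns, Smurf2-/- left of the line and wild-type right of it), in log2 units relative to each gene's median over the arrays. The widest departures were 3.81 for Igf2 in late wild-type mixed BL, 3.74 for Igfbp3 in early wild-type mixed BL and -4.03 for Igfbp2 in late Smurf2-/- C57B6.

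The comparison of genotypes set Smurf2-/- cells against wild-type cells, which also differ in the sex-linked genes. Both ligands stood lower in Smurf2-/- cells than in wild-type cells in every matched pair, and so did the binding proteins Igfbp4 and Igfbp5. Igfbp2 was lower in 3 of 4 pairs and Igfbp6 higher in 3 of 4. None of the 10 passed limma's adjusted threshold of 0.05 for genotype, which 0.0286% of all genes passed. At an unadjusted p under 0.05 there were 2 of the 10 (Igf2 and Igfbp5) and 7.55% of all genes.

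Igf2, the fetal growth ligand, was 0.48 and -1.32 in late and -0.50 and -1.09 in early Smurf2-/- arrays, and 3.81 and 0.29 in late and 1.98 and -0.29 in early wild-type arrays, mixed BL before C57B6 each time. The wild-type mixed BL arrays stood above all others, and the remaining wild-type values overlapped the Smurf2-/- ones. The matched differences were -3.33 and -1.60 late and -2.49 and -0.80 early. Averaged over pairs Igf2 was -0.61 ± 0.80 in Smurf2-/- and 1.45 ± 1.84 in wild-type cells (SD, n = 4 each), a difference of -2.06 ± 0.47 (SE) or 4.16-fold lower, with a 95% interval of -3.20 to -0.91 and a limma adjusted p of 0.651. Without the late Smurf2-/- arrays the difference was -1.65. The Igf2 genotype effect in mixed BL minus that in C57B6 was -1.70 ± 0.68 (SE), with an interval of -3.45 to 0.05 and an adjusted p of 0.939 by limma.

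Igf1, the ligand linked to postnatal growth, was 0.29 and -1.71 in late and -0.45 and -0.35 in early Smurf2-/- arrays. Wild-type arrays held 2.51 and 0.33 late and 0.07 and -0.07 early, in the same order of backgrounds. The genotypes overlapped, and the late wild-type mixed BL array stood far above the rest. The matched differences were -2.22 and -2.04 in late cells and -0.52 and -0.28 in early cells. The mean difference was -1.26 ± 0.56 (SE, 2.40-fold, limma adjusted p = 0.651), and it was -0.40 without the late Smurf2-/- arrays. The genotype effect in late minus that in early cells was -1.73 ± 0.94 (SE), which limma did not call (adjusted p = 1).

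Igfbp2, a binding protein abundant in fetal tissue and fluids, held the single lowest value of the axis. Smurf2-/- arrays were at -2.39 and -4.03 late and -2.27 and 0.74 early, and wild-type arrays at 0.50 and 0.32 late and 0.09 and -0.09 early. Wild-type arrays lay close to each other, while 3 of the 4 Smurf2-/- arrays were far below them and the early C57B6 array was above them. The mean was -1.99 ± 1.99 in Smurf2-/- and 0.20 ± 0.26 in wild-type cells (SD, n = 4 each), a difference of -2.19 ± 0.91 (SE) or 4.57-fold, with an interval of -4.44 to 0.05 and a limma adjusted p of 0.651. The value was -1.36 without the late C57B6 Smurf2-/- array, -3.24 without the early one and -0.77 without both late Smurf2-/- arrays.

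The remaining binding proteins divided in direction. Igfbp5, which binds matrix and IGFs and is made by fibroblasts, was 0.43 and -0.94 late and -0.37 and -1.23 early in Smurf2-/- cells, and 1.31 and -0.57 late and 0.37 and 0.80 early in wild-type cells. Its groups overlapped and it was 2.01-fold lower in Smurf2-/- cells (95% interval on the log2 scale -1.96 to -0.05, limma adjusted p = 0.651). Igfbp4, an inhibitory binding protein cut by pregnancy-associated plasma protein A, was 0.26 and -1.58 late and -1.55 and -0.26 early in Smurf2-/- cells, and 0.52 and 0.33 late and -1.40 and 1.63 early in wild-type cells. Its matched differences were -1.90 and -1.89 in C57B6 and -0.25 and -0.15 in mixed BL, and the mean difference was -1.05 ± 0.74 (SE, limma adjusted p = 0.722). Igfbp6, which prefers IGF2, was 3.08 and -0.82 late and 2.91 and 0.43 early in Smurf2-/- cells, and -1.01 and -0.60 late and 1.45 and -0.43 early in wild-type cells. Its difference was 1.55 ± 0.66 (SE, 2.92-fold higher, limma adjusted p = 0.651), and the late mixed BL pair alone differed by 4.10. The genotype effect on Igfbp6 was 2.46 ± 0.94 larger in mixed BL than in C57B6, with an interval of 0.04 to 4.88 and a limma adjusted p of 0.939. This value was 1.44 with the late and 3.48 with the early mixed BL wild-type array left out. Igfbp3 differed by -0.19 and Igfbp7 by 0.27 between genotypes. Single arrays carried much of several of these differences. With the mixed BL late wild-type array left out, the genotype difference was -0.77 for Igf1 and 0.86 for Igfbp6, with the late C57B6 Smurf2-/- one left out it was -0.44 for Igfbp4, and with the early C57B6 wild-type one left out it was -0.57 for Igfbp5.

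The receptor differences between genotypes were smaller in size than those of the ligands, a comparison that was not tested. Igf1r was -0.78 and -0.10 late and -0.78 and 0.30 early in Smurf2-/- cells, and 0.10 and 0.10 late and -0.49 and 0.16 early in wild-type cells. Its difference of -0.31 ± 0.19 (SE) had an interval of -0.78 to 0.16 and a limma adjusted p of 0.692. The Igf1r value was -0.10 with the mixed BL late wild-type array left out and -0.08 without the late Smurf2-/- arrays. Igf2r differed by -0.16 ± 0.09 (SE), with an interval of -0.38 to 0.06 and a limma adjusted p of 0.674, and by -0.10 without the mixed BL late Smurf2-/- array and -0.02 without both late Smurf2-/- arrays. Over the 10 genes 8 were lower and 2 higher in Smurf2-/- cells, with a median difference of -0.66, against a median of 0.02 over all genes. None of the 10 kept the genotypes apart without overlap, which 1.14% of all genes did with Smurf2-/- higher and 1.02% with Smurf2-/- lower.

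**Figure D2:**
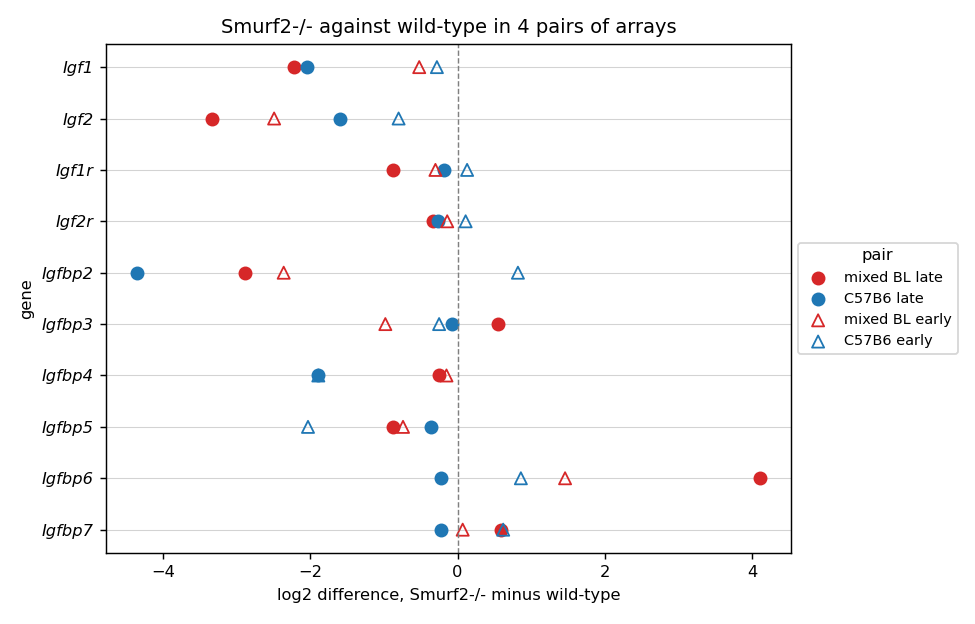
Smurf2-/- minus wild-type difference in log2 units (horizontal axis) for each IGF axis gene (vertical axis), with 1 marker for each of the 4 matched pairs of background and passage class. Igf1, Igf2, Igfbp4 and Igfbp5 lie left of 0 in all 4 pairs, and Igfbp2 spans 0.82 to -4.35.

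Passage asks how the axis differs between cultures kept for many passages and young ones. Igf2r and Igfbp7 were lower in all late arrays than in any early array, and Igfbp3 was lower at late passage in every matched pair. For the ligands, Igf1r, Igfbp2, Igfbp4, Igfbp5 and Igfbp6 the pairs differed in sign. None of the 10 passed limma's adjusted threshold for passage, which 0.0171% of all genes passed, while 3 of the 10 (Igf2r, Igfbp7 and Igfbp3) and 17.3% of all genes had an unadjusted p under 0.05. The 2 genes without overlap were both lower at late passage, where 4.59% of all genes had no overlap, and 0 of the 10 were higher without overlap, against 5.44% of all genes.

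Igf2r was -0.98 and -0.33 in late Smurf2-/- arrays and -0.65 and -0.06 in late wild-type arrays. It was 0.06 and 0.71 in early Smurf2-/- arrays and 0.20 and 0.59 in early wild-type arrays, mixed BL before C57B6. The gap between the highest late and the lowest early value was narrow, from -0.06 to 0.06. The matched differences lay close together, at -1.04 and -1.04 in Smurf2-/- cells and -0.85 and -0.65 in wild-type cells. The late mean was -0.51 ± 0.40 and the early mean 0.39 ± 0.31 (SD, n = 4 each), a difference of -0.90 ± 0.09 (SE) or 1.86-fold lower, with an interval of -1.11 to -0.68. The limma adjusted p was 0.0583, and it ranged from 0.0828 to 0.334 with 1 array left out.

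Igfbp7 was -0.16 and -0.53 in late Smurf2-/- arrays and -0.75 and -0.31 in late wild-type arrays, and 0.89 and 0.78 in early Smurf2-/- arrays and 0.82 and 0.16 in early wild-type arrays. The late values were all below the early ones, by a margin between -0.16 and 0.16 that was narrow but wider than that of Igf2r. The difference was -1.10 ± 0.18 (SE, 2.14-fold lower, limma adjusted p = 0.113), with an interval of -1.53 to -0.67.

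Igfbp3, the main carrier of IGFs in serum, was 0.10 and -0.90 in late Smurf2-/- arrays and -0.45 and -0.82 in late wild-type arrays, and 2.76 and -0.10 in early Smurf2-/- arrays and 3.74 and 0.15 in early wild-type arrays. The early mixed BL arrays of both genotypes were the highest, and the late mixed BL Smurf2-/- array lay above the early C57B6 Smurf2-/- array. The difference was -2.15 ± 0.57 (SE, 4.45-fold lower, limma adjusted p = 0.172), with an interval of -3.56 to -0.75. Without the late Smurf2-/- arrays the late minus early differences were -0.75 for Igf2r, -1.02 for Igfbp7 and -2.58 for Igfbp3.

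For Igfbp4, Igfbp3 and Igf1 the passage differences of the 2 backgrounds stood apart in sign or size, though no interaction passed the test. The backgrounds also differed in passage numbers and in the number of embryos pooled, which cannot be told apart from background. Igfbp4 was higher at late passage in mixed BL by 1.81 in Smurf2-/- and 1.92 in wild-type cells. In C57B6 it was lower, with differences of -1.31 in Smurf2-/- and -1.30 in wild-type cells. The passage effect differed between backgrounds by 3.17 ± 0.77 (SE, interval 1.19 to 5.15, limma adjusted p = 0.388). The Igfbp3 effect was -2.66 and -4.19 in Smurf2-/- and wild-type mixed BL pairs, and -0.80 and -0.97 in the C57B6 pairs. It differed between backgrounds by -2.54 ± 0.50 (SE, interval -3.83 to -1.25, limma adjusted p = 0.33). The Igf1 effect was 0.75 in Smurf2-/- and 2.45 in wild-type mixed BL pairs, and -1.37 and 0.39 in C57B6 pairs, a difference of 2.08 ± 0.79 (SE, limma adjusted p = 0.533). Igf2 was higher at late passage in 3 of 4 pairs, by 0.98 and 1.82 in mixed BL Smurf2-/- and wild-type cells and by 0.57 in C57B6 wild-type cells, and differed by -0.23 in C57B6 Smurf2-/- cells. Igfbp2 differed by -4.77 between late and early C57B6 Smurf2-/- cells, whereas the other 3 pairs differed by -0.12 to 0.41. In limma 0% of all genes passed each of the 3 interactions (genotype by passage, genotype by background, passage by background), and none of the 10 did. At an unadjusted p under 0.05 there were 0, 1 (Igfbp6) and 3 (Igf1, Igfbp3 and Igfbp4) of the 10, against 5.35%, 3.18% and 9.19% of all genes.

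**Figure D3:**
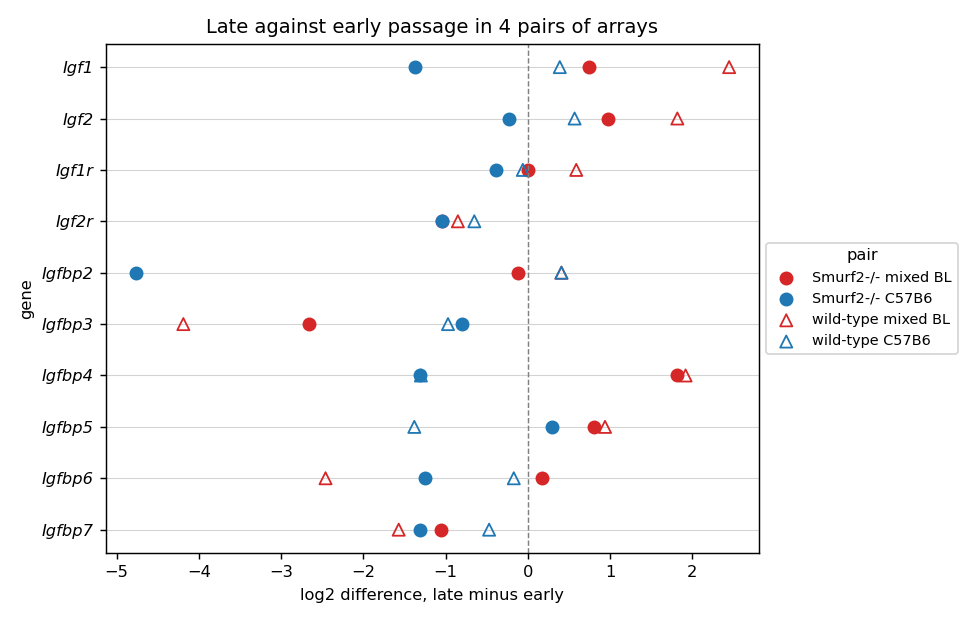
Late minus early difference in log2 units (horizontal axis) for each IGF axis gene (vertical axis), with 1 marker for each of the 4 matched pairs of genotype and background. Igf2r and Igfbp7 lie left of 0 in all pairs, Igfbp4 lies at 1.81 and 1.92 in mixed BL and at -1.31 and -1.30 in C57B6, and Igfbp2 reaches -4.77.

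Of 8 marker lists of cell types, the macrophage list alone had no overlap between late and early arrays. Its 8 measured markers averaged -0.12 to -0.05 in late arrays and 0.02 to 0.54 in early arrays, with 3 markers higher and 5 lower at late passage (median -0.05). Lyz2 stood at 2.07 and 3.20 in the early mixed BL Smurf2-/- and wild-type arrays that were highest for Igfbp3. Markers of other lists were also highest there, in the same order: Thy1 of the fibroblast list (2.76, 1.89) and Lpl of the adipocyte list (1.70, 1.42). Others of those lists were not, as Fabp4 was -0.18 and -0.28 there and Dcn was highest, at 2.44, in late Smurf2-/- mixed BL cells. In those early mixed BL arrays Cd14 was -0.07 in Smurf2-/- and -0.10 in wild-type cells, and Csf1r was highest in a late array, at 0.59 in wild-type mixed BL. Adgre1 (0.16, 0.23) and Fcer1g (0.12, 0.21) were highest in the early mixed BL arrays, given as Smurf2-/- before wild-type. Tyrobp (-0.04, 0.13) was mixed there, in the same order. The leukocyte marker Ptprc was -0.05 to 0.19 over all arrays, with its highest value in early wild-type mixed BL cells. Cd68 had no overlap, with late arrays at -0.74 to -0.12 and early arrays at 0.12 to 0.87. The fibroblast list (10 of 10 measured) was lower at late passage in all 10 genes, with a median of -0.21, and averaged -0.97 to 0.71 in late and -0.06 to 0.61 in early arrays, which overlap. Higher at late passage were all 6 epithelium markers (median 0.14) and 5 of 6 skeletal muscle markers (median 0.07), also with overlapping list means. Between genotypes all 5 neural markers were higher in Smurf2-/- cells (median 0.25) and 5 of 6 cartilage markers were lower (median -0.30), with overlapping list means. The same held for 7 of 8 macrophage markers, which were lower (median -0.05), and 5 of 6 skeletal muscle markers, which were higher (median 0.11). Between backgrounds all 6 cartilage markers were lower in mixed BL cells (median -0.39), as were 5 of 6 epithelium markers (median -0.03). Of the endothelium markers 5 of 6 were higher there (median 0.04). None of these markers passed limma's adjusted threshold. Their part in the differences of the IGF genes was not tested, and centred values cannot show which markers are near 0 in level.

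Background contrasted mixed BL with C57B6 cells, which also differed in passage numbers and in the number of embryos pooled. These cannot be told apart from background here. Igf2 and Igfbp3 were higher and Igf2r lower in mixed BL cells in 4 of 4 pairs. Of the 10 genes 0 passed limma's adjusted threshold, which 0.08% of all genes passed, and 5 of the 10 (Igf2, Igf1r, Igf2r, Igfbp3 and Igfbp6) and 13.5% of all genes had an unadjusted p under 0.05. No gene of the 10 was free of overlap, against 3.02% of all genes with mixed BL higher and 2.89% with mixed BL lower. Igf2 averaged 1.44 ± 1.88 in mixed BL and -0.60 ± 0.74 in C57B6 cells (SD, n = 4 each), a difference of 2.04 ± 0.47 (SE, 4.12-fold, limma adjusted p = 0.191). Igf2r averaged -0.34 ± 0.57 in mixed BL and 0.23 ± 0.50 in C57B6 cells, a difference of -0.57 ± 0.09 (SE, 1.48-fold lower, limma adjusted p = 0.115). Igfbp3 differed by 1.96 ± 0.57 (SE, limma adjusted p = 0.246), and the pairs were 2.86 and 3.59 in early and 1.00 and 0.37 in late Smurf2-/- and wild-type cells. Igfbp6 differed by 1.97 ± 0.66 (SE, limma adjusted p = 0.288) and Igf1r by -0.60 ± 0.19 (SE, limma adjusted p = 0.269). The largest Igfbp6 pair was 3.91, in late Smurf2-/- cells, and the late wild-type pair ran the other way at -0.41.

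**Figure D4:**
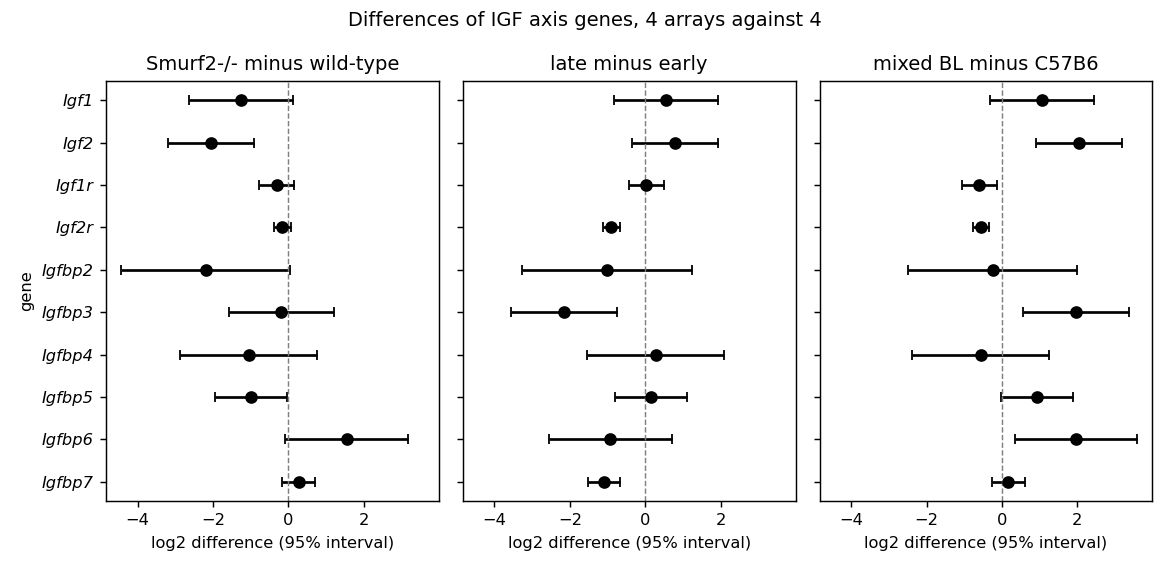
Fitted differences in log2 units with 95% intervals (bars) for the 10 IGF axis genes in 3 panels: Smurf2-/- minus wild-type, late minus early and mixed BL minus C57B6, each from 4 arrays against 4. Intervals that exclude 0 are those of Igf2 and Igfbp5 for genotype, of Igf2r, Igfbp3 and Igfbp7 for passage, and of Igf2, Igf1r, Igf2r, Igfbp3 and Igfbp6 for background, and none of these passed the threshold after adjustment.

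Over the axis the late minus early differences were split 5 higher and 5 lower, with a median of -0.43 against 0.03 over all genes. The mixed BL minus C57B6 differences were 6 higher and 4 lower, with a median of 0.55 against 0.0046. The absolute difference had a median of 1.03 for genotype, 0.84 for passage and 0.76 for background among the 10 genes, against 0.09, 0.12 and 0.09 among all genes. As for the ranges, the 10 were chosen with earlier results known and dim genes could not be filtered out, so this too is a description only. The 95% intervals reached 0.216 to 2.24 log2 units to either side of the difference among the 10, with a median of 1.26. Igfbp2 and Igfbp5 are neighbours on chromosome 1, with 0 protein-coding genes between them. Late C57B6 Smurf2-/- and wild-type cells differed by -4.35 for Igfbp2 and by -0.36 for Igfbp5, whereas in early C57B6 cells Igfbp2 differed by 0.82 and Igfbp5 by -2.03.

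Further genes around the axis were taken from a list of 34, of which 31 were measured. None passed limma's adjusted threshold in any of the 3 main comparisons, and at an unadjusted p under 0.05 there were 2 for genotype, 4 for passage and 6 for background, where all genes gave 7.55%, 17.3% and 13.5%. For genotype 13 were higher and 18 lower, with a median of -0.05, for passage 12 and 19 with a median of -0.04, and for background 13 and 18 with a median of -0.05. The genotype split was 3 higher and 13 lower among 16 receptor adaptors and signal genes (median -0.15), and 5 higher and 1 lower among 6 hormones and receptors (median 0.04). The 6 binding protein proteases and their inhibitors were 4 higher and 2 lower (median 0.12), and the 3 Igf2 mRNA and locus partners 1 higher and 2 lower (median -0.07). Irs1, the docking protein of the activated receptor, differed by -0.37 ± 0.09 between Smurf2-/- and wild-type cells (SE, limma adjusted p = 0.651) and between late and early cells by -0.38 ± 0.09 (SE, limma adjusted p = 0.154). With transcript clusters tested singly in place of gene means, the Irs1 cluster of smallest p differed by -0.61 for genotype. The cluster of smallest p for passage differed by -0.74. The gene means average all Irs1 clusters, so the clusters differed in size, and the others are not given here. Shc1, the adaptor to the Ras pathway, stood at -0.70 to -0.04 in late arrays and 0.04 to 0.38 in early arrays (difference -0.45 ± 0.10, SE, limma adjusted p = 0.142). Pappa, the protease that cuts Igfbp4, differed by -1.24 ± 0.60 for genotype and -1.54 ± 0.60 for passage (SE, limma adjusted p = 0.653 and 0.278), and by -0.41 and -0.71 without the late Smurf2-/- arrays. Akt1, the downstream kinase, differed by -0.50 ± 0.14 for passage (SE, limma adjusted p = 0.18). Eif4ebp1, a repressor of translation that mTORC1 inactivates, stood at 0.10 to 0.49 in mixed BL and -0.88 to -0.10 in C57B6 arrays (difference 0.63 ± 0.14, SE, limma adjusted p = 0.191). Tsc2, a brake on mTORC1, differed by -0.48 ± 0.14 for background (SE, limma adjusted p = 0.25). Sh2b1, an adaptor of receptor kinases, differed by -0.21 ± 0.06 for background and -0.14 ± 0.06 for genotype (SE, limma adjusted p = 0.25 and 0.651). Stc2, which encodes a stanniocalcin that inhibits pregnancy-associated plasma protein A, differed by 0.58 ± 0.22 for background (SE, limma adjusted p = 0.329).

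Likeness was measured as the root mean square difference in log2 units over the 8 arrays, each gene centred on its own mean, with the 2 nearest genes named for the 4 genes of widest range. Igf2, whose own root mean square was 1.6, was nearest to Vit at 0.735 and then to Igf1 at 0.807. Igfbp2 (1.64) was nearest to Sorbs2 at 0.763 and Alkal1 at 0.784. Igfbp3 (1.61) was nearest to Lyz2 at 0.46 and P2ry10b at 0.488, and Lyz2 shared its high early mixed BL arrays. Igf1 (1.1) was nearest to Sfrp1 at 0.469 and Gcnt1 at 0.521. These are descriptions over 8 arrays that share genotype, passage and background.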

How the data were processed

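The study measured total RNA of mouse embryonic fibroblasts on 8 Affymetrix arrays, with the number of arrays limiting the precision. The authors deposited log2 values centred per transcript cluster, shown by row medians of at most 5e-07 in size. That these deposited values are on the log2 scale was read from their numerical step: in 96.8% of clusters every value was a multiple of the single-precision step for numbers between 4 and 8 (tolerance 6e-08). How the arrays were normalised is not given in the sources used here. Builds mm8 and mm9 appear in the submitters' processing notes, with no use stated. An exon array is named by the series text, but names came from a gene-level array's annotation, which the probe identifiers fitted. It gave 1 symbol to 19134 of 24169 clusters, several to 1230 and none to 3805, and a RefSeq table (GRCm38.p6) updated the symbols of 19067. Clusters of a gene were averaged, giving 17501 genes, and no dim-probe filter could be applied to centred values.

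All genes were fitted together with limma 3.58.1 in R 4.3.3 without a trend on genotype, background and passage class (4 residual degrees of freedom), with 1 interaction added at a time (3 degrees), and p-values were adjusted by Benjamini-Hochberg at a threshold of 0.05. Sample titles end in a number that equals the passage class, which is the pairing given by the labels, and the passage term of the model holds it. The fit was tested on simulated data. Alternatives were array scaling, the trend, cluster values, added interactions, the block and each array left out. The members, the gene lists and the markers were chosen with earlier results of these data known. Named were all 10 members, of the further list any gene that passed and the 4 of smallest p per main comparison with 1 sign in all 4 pairs, and the 2 nearest genes for the 4 members of widest range. Tables were handled in Python 3.11.15, and sequences are RefSeq's. Genes of the further list beyond the 31 measured were not analysed here.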

Additional observations from a re-analysis of the deposited data

Results flagged for a closer look

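Among groups of 4 arrays, 60 were examined for a value that stood apart by Dixon's test (gap over range above 0.829), and 5 did. The test's chance rate of about 1 in 20 groups is for replicates of the same condition. Here each group mixed levels of the other factors and each array served in several groups, so that rate does not apply. Igf1 was 2.51 in late wild-type mixed BL cells, far above the other wild-type arrays (gap over range 0.848). Igf1r was -0.49 in early wild-type mixed BL cells, below the other wild-type arrays (0.9). Igfbp7 was 0.16 in early wild-type C57B6 cells, below the other early arrays (0.856). Igfbp4 was -1.58 in late Smurf2-/- C57B6 cells, below the other late arrays (0.879). Igfbp6 was 3.08 in late Smurf2-/- mixed BL cells, above the other late arrays (0.9).

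For 3 genes the matched pairs of one group had the opposite sign to those of the other, although for Igf1r a mixed BL pair was only 0.00044. The late minus early difference of Igfbp4 was higher in mixed BL than in C57B6 by 3.17 ± 0.77 (SE, limma adjusted p = 0.388), and that of Igf1r by 0.52 ± 0.35 (SE, limma adjusted p = 0.753), which was 0.14 without the late mixed BL wild-type array. The late minus early difference of Igfbp2 was lower in Smurf2-/- than in wild-type cells, with a difference of -2.85 ± 1.53 (SE, 95% interval -6.77 to 1.07, limma adjusted p = 1), where the C57B6 Smurf2-/- pair alone was at -4.77. That value ranged from -4.69 without the early mixed BL Smurf2-/- array to -1.01 without the early C57B6 Smurf2-/- array.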

How the results depend on the processing

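Of 689 recomputed values of 48 differences, 670 kept their direction and side of the threshold, 18 turned sign and 1 newly passed, and 0 members passed for genotype or background under any alternative run. The 48 were the members' main differences, those of the named further genes, and member interactions picked for a small p or opposite pairs. With cluster values the cluster of smallest p stood for its gene. None of the 48 passed in the reported fit, so this choice favoured values that hold. With limma's mean-variance trend 1 member passed for passage, Igf2r (adjusted p = 0.0393), but centred values carry no mean level for such a trend and it gave Igfbp2 an SE of 702, so that fit is void here and supports no call. Without both late Smurf2-/- arrays, chosen after seeing the data, the passage difference turned to 0.41 for Igfbp2 and to -0.22 for Igfbp5. With 1 array left out, the genotype difference of Igfbp3 ranged from -0.70 to 0.32, and passage differences from -1.48 to 0.03 for Igfbp2, -0.18 to 0.21 for Igf1r, -0.34 to 0.89 for Igfbp4 and -0.08 to 0.59 for Igfbp5. Background differences ranged from -1.08 to 0.79 for Igfbp2 and from -1.18 to 0.05 for Igfbp4. The causes were not tested. Without the replicate block, which is the passage class, 0 members passed for genotype, background or genotype by background, and the block could not be dropped from passage itself. Counts over all genes depended on the setting. Genotype gave 5 genes as reported, 0 after quantile or median scaling or with all 3 interactions, 3 with the trend or with cluster values, and 0 to 1 with 1 array left out. Passage gave 3, and 2 after quantile scaling, 25 with the trend, 0 after median scaling, with cluster values or with all 3 interactions, and 0 to 2 with 1 array left out. Background gave 14, and 1 after quantile scaling, 7 after median scaling, 28 with the trend, 66 with cluster values, 1 with all 3 interactions and 1 to 21 with 1 array left out. Without both late Smurf2-/- arrays the counts were 0 for genotype, 0 for passage and 1 for background. Signal over background was not available from centred values, so no limit by brightness can be given.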

Other observations

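Of the nearest genes of the 10 members, that of Igf1r was the closest, as was seen after the values were known. Pxdn, which encodes a peroxidase of the extracellular matrix, differed from Igf1r by a root mean square of 0.043 log2 units over the 8 arrays, each gene centred on its own mean, and by at most 0.0718 on any array on that scale, where Igf1r itself had a root mean square of 0.407. Relative to each gene's median, Pxdn stood at -0.80 and -0.13 in late and -0.68 and 0.37 in early Smurf2-/- arrays, and at 0.17 and 0.13 in late and -0.46 and 0.19 in early wild-type arrays, mixed BL before C57B6. Igf1r stood at -0.78 and -0.10, -0.78 and 0.30, 0.10 and 0.10, and -0.49 and 0.16 in the same order. The array values share genotype, passage and background.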
